A study of Mus musculus with 38 samples.

Results

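The genes described here are 10 genes of antigen presentation (H2-Aa, H2-Ab1, H2-Eb1, Cd74, Ciita, H2-K1, H2-D1, B2m, Tap1 and Tap2) of the 21644 gene symbols used from both liver expression tables. They were chosen by symbol, and all 10 were present in both tables. Total RNA of mouse liver was sequenced in 38 libraries of 9 groups, and the value of a gene is its RPKM, its reads scaled by transcript length and library size. In the R26 system the transactivator R26-rtTA was combined with no tet transgene (WT, 4 libraries), tet-Myc (4), tet-YAP (6) or both (tet-Myc/YAP, 3), and the transgenic mice were labelled as induced for 2 days, with doxycycline in the food. R26-rtTA is not restricted to hepatocytes. In the LAP system the transactivator LAP-tTA, which is driven by a liver promoter, was combined with no tet transgene (WT, 3 libraries), tet-Myc (3), tet-YAP (4) or tet-Myc/YAP (3), with 4 weeks given for the transgenic mice, and 8 further libraries came from tumours of LAP-tTA tet-YAP mice. The tet-YAP transgene encodes the activated mutant YAP S127A. The labels give no age, sex or strain background, no induction time for the WT mice or the tumours, and give no statement that each library is a separate animal, so p-values measure the spread between libraries, which may be technical.

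A pair of systems displays peptides to T cells. On nearly all nucleated cells, class I molecules (the heavy chains H2-K1 and H2-D1 with the light chain B2m) carry peptides that the transporter Tap1/Tap2 pumps into the endoplasmic reticulum. Class II molecules (H2-Aa with H2-Ab1 and, in strains with a working H2-E alpha chain, the beta chain H2-Eb1) are made mainly by dendritic cells, B cells and macrophages, with Cd74, the invariant chain, as their chaperone. In liver they are found chiefly on such cells, Kupffer cells and sinusoidal endothelium, and hepatocytes normally make little. Ciita is the coactivator that switches class II genes on, Nlrc5 is its counterpart for class I genes, and both are recruited by proteins that bind paired elements, the X and Y boxes, shortly before the start of transcription. Interferon gamma raises both sets.

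The RefSeq promoter table (GRCm38.p6) held 6 of the 10 genes. Their 250 bases before the start were searched on both strands for TGANG, the core of the X2 element, followed after 18 to 22 bases by ATTGG, the core of the Y box. This pair was present in 5 of the 6 and in 343 of all 27025 promoters in the table (1.27%), whereas TGANG alone was in 84.9% and ATTGG alone in 34.5%. The 5 stretches are printed because they are what the class I and class II genes share in sequence, with both elements in capitals.
H2-Aa (chr17:34287847-34287917, minus strand): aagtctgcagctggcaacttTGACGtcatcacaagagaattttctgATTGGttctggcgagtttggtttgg
H2-Eb1 (chr17:34305761-34305832, plus strand): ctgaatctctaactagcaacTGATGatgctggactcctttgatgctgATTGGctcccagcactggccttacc
H2-K1 (chr17:34000348-34000408, minus strand): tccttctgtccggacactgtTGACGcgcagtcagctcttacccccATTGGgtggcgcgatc
H2-D1 (chr17:35262973-35263042, plus strand): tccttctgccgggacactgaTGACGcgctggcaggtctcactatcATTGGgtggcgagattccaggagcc
B2m (chr2:122147589-122147658, plus strand): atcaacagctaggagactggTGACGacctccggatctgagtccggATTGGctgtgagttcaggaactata
The pair began between 41 and 101 bases before the start. In H2-Eb1 it was found in 2 placements, of which 1 is shown. GGGATTCCC, the core of a kappa B element, was present in H2-K1 and H2-D1 and in 0.311% of all promoters. The Tap1 window held each element but not the spaced pair. A match is a description of letters and not of binding.

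The sums that the RPKM values imply were 23680000 to 56810000 reads per library. The most highly expressed genes levelled off near the sixth-highest gene, which lay at 1446.7 to 1721 reads per kilobase in every library. Its RPKM, called the ceiling here, tended to be lower in deeper libraries (28.7 to 67.3). Genes ranked above it exceed it, such as Apoa1 with up to 72.2 RPKM in LAP WT. H2-K1, H2-D1, B2m and Cd74 lay at 19.8% or more of that ceiling in all 38 libraries, and their differences from WT in R26 tet-Myc/YAP, LAP tet-YAP, LAP tet-Myc/YAP and the tumours are given below also with each library divided by its ceiling. Hepatocyte markers were present in all libraries (Alb 19.4 to 69.4 RPKM). Xist and Y-linked genes gave a female pattern in 17 libraries, among them all 8 tumours, R26 tet-Myc/YAP library 3 and LAP tet-Myc/YAP libraries 1 and 2. In R26, mouse Myc measured 0.522 to 0.767 RPKM without a transgene, 1.42 to 2.27 with tet-YAP, 0.609 to 3.50 with tet-Myc and 2.70 to 3.12 with both, so it was also above WT without a Myc transgene. The lowest R26 tet-Myc library (0.609) lay within the range of R26 WT, so its label was not checked by that gene. In LAP tet-Myc (0.913 to 1.87) and LAP tet-Myc/YAP (1.47 to 2.81) Myc lay within the range of LAP WT (0.630 to 3.20). In LAP tet-YAP Myc was 2.40 to 2.86, so neither LAP label with tet-Myc was checked by that gene. Yap1 overlapped WT in both tet-YAP groups (4.84 to 5.85 and 4.24 to 4.80), and whether transgene reads map to the mouse gene was not given in the sources used here. In 6 pairs of R26 libraries the spread was 1.06 to 1.89 times counting noise, compared with 1.9 to 5.44 in the other 24 pairs. A pair was taken as close when this ratio was under 2 and each library was the nearest to the other. The tet-YAP pairs 2 and 4 (1.90) and 1 and 2 (1.99) were under 2 but not nearest, so the limit is no clear gap. For genes of 200 to 500 reads the ratios overlapped, with 1.81 to 7.77 in the close pairs and 4.85 to 27.1 in the others. The close pairs of WT were 2 and 3, and 1 and 4. Those of tet-YAP were 1 and 4, 2 and 5, and 3 and 6. The last was tet-Myc/YAP 1 and 2, so every WT and tet-YAP library of R26 lay in such a pair. In 3 LAP pairs (tet-YAP 3 and 4, tet-Myc 1 and 2, WT 2 and 3) the spread was 1.66 to 1.79, against up to 11.08 over all 43 LAP pairs. Whether the libraries of such a pair are separate samples was not given in the sources used here. All were kept as separate libraries, so the SD, SE and intervals count them as independent. If such a pair is a repeat of the same sample, these understate the spread between samples. Averaging such close pairs, for LAP an alternative chosen after seeing the data, is given where it changes a call. Library numbers follow the column order of the tables and pair nothing.

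At baseline the members spanned a wide range of levels per length. In R26 WT, H2-K1 was the highest with 34.8 ± 1.45 RPKM (SD, n = 4), followed by H2-D1 with 30.1 ± 1.70, Cd74 with 23.9 ± 2.31, B2m with 19.1 ± 2.41 and H2-Ab1 with 15.6 ± 2.47 (all n = 4). H2-Eb1 with 9.15 ± 1.93, H2-Aa with 8.31 ± 0.932 and Tap2 with 7.61 ± 0.896 overlapped each other, and Tap1 had 5.14 ± 0.667 (n = 4 each). Ciita was the lowest with 0.665 ± 0.133 (n = 4), which is 13.7 or more reads per kilobase. LAP WT gave the same order at the top, with H2-K1 at 31.4 ± 7.28, H2-D1 at 29.5 ± 7.93 and Cd74 at 20.2 ± 6.77 (n = 3 each), and differed in that Tap2 (9.39 ± 1.44, n = 3) was above H2-Eb1 (4.19 ± 1.65, n = 3) in every library. The 2 systems are separate tables and were not tested against each other. LAP WT library 1, the male-pattern one, was the highest of the 3 for all 10 genes. It was also the shallowest of all 38 libraries (23680000 reads), with a ceiling of 67.3 RPKM compared with 51.6 and 43.0 in LAP WT libraries 2 and 3. Sex pattern and depth cannot be told apart there. Exons of Tap1 overlap Psmb9, those of Ciita overlap Dexi and those of Tap2 overlap 2 non-coding genes on the opposite strand in GENCODE, and since the kit does not mark strand their reads cannot be told apart. H2-K1 and H2-D1 share long stretches with each other and with the H2-Q genes, so the division of reads among them is uncertain.

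**Figure D1:**
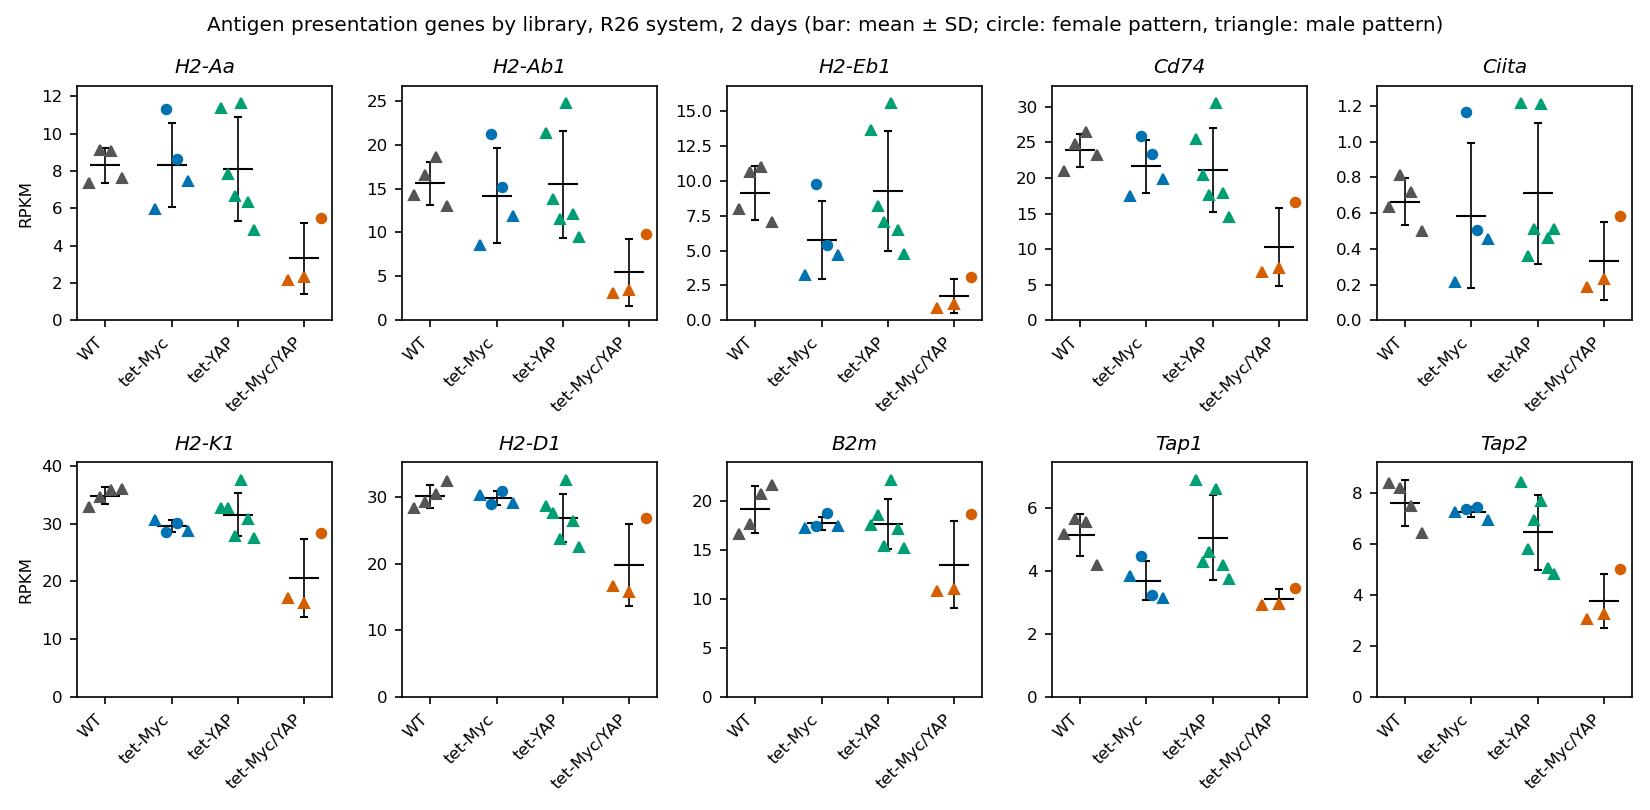
RPKM (y axis, linear from 0) of the 10 antigen presentation genes in each of the 17 R26 libraries by group, with the mean and SD of the group; circles are libraries with a female pattern and triangles with a male pattern. The 2 male-pattern tet-Myc/YAP libraries are the lowest of all 17 for H2-Aa, H2-Ab1, H2-Eb1 and Cd74, and the third lies above them. Those 2 are also the deepest of the 17.

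After 2 days, the class II genes fell where Myc and YAP were induced together, and neither single transgene gave a call. H2-Eb1 fell most, then H2-Ab1, H2-Aa and Cd74, and class I genes fell by less. H2-Aa, the alpha chain, was 7.37, 9.13, 9.10 and 7.64 RPKM in the WT libraries and 2.14, 2.31 and 5.51 in tet-Myc/YAP. H2-Ab1, its beta chain, was 14.2, 16.5, 18.6 and 13.0 in WT compared with 3.14, 3.40 and 9.81. H2-Eb1 was 7.96, 10.6, 10.99 and 7.07 in WT compared with 0.902, 1.15 and 3.13. For each of these the groups did not overlap, and library 3 of tet-Myc/YAP lay between the 2 others and WT. Cd74 was 21.0, 24.8, 26.4 and 23.2 in WT and 6.79, 7.38 and 16.6 in tet-Myc/YAP, in the same pattern. The tet-Myc/YAP libraries also differed in depth. Libraries 1 and 2 had 45370000 and 45380000 reads (ceilings of 34.3 and 33.8 RPKM), and library 3 had 25990000 (55.7). Among these 3 libraries depth and sex pattern cannot be told apart, and their part was not tested.

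By limma on log2(RPKM + 0.5), a gene was called at an adjusted p (Benjamini-Hochberg over 11263 genes) under 0.05 and a log2 difference of at least 0.5. In R26 tet-Myc/YAP against R26 WT, 9 of the 10 members were called, all lower, where 37.6% of all genes tested were called lower and the median of all genes was -0.39. The median of the members was -0.87 and that of H2-Aa, H2-Ab1, H2-Eb1 and Cd74 was -1.45. H2-Eb1 fell by 2.23 ± 0.40 (SE) on the log2 scale (adjusted p = 0.000157). H2-Ab1 fell by 1.60 ± 0.37 (adjusted p = 0.0013), H2-Aa by 1.31 ± 0.30 (adjusted p = 0.00116) and Cd74 by 1.29 ± 0.26 (adjusted p = 0.00051). Ciita was 0.634, 0.811, 0.716 and 0.498 RPKM in WT and 0.185, 0.230 and 0.583 in tet-Myc/YAP, a log2 difference of -0.51 ± 0.29 (adjusted p = 0.13). At these levels the added 0.5 compresses the difference, and the groups overlapped.

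Among class I genes, H2-K1 was 32.9, 34.6, 35.9 and 35.9 RPKM in WT and 17.1, 16.3 and 28.4 in tet-Myc/YAP, and fell by 0.79 ± 0.15 (adjusted p = 0.00026). H2-D1 fell by 0.63 ± 0.15 and B2m, the light chain, by 0.53 ± 0.16. Of the transporter, Tap2 went from 8.39, 8.17, 7.47 and 6.40 RPKM to 3.04, 3.26 and 4.99, a fall by 0.95 ± 0.17 (adjusted p = 0.000201). Tap1 fell by 0.64 ± 0.18 (adjusted p = 0.00501), with 2.92, 2.97 and 3.47 RPKM in the 3 tet-Myc/YAP libraries. B2m was the only called member whose groups overlapped, since library 3 (18.6) was above 2 WT libraries (16.6 and 17.6). The share of all genes without such overlap is not given here.

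After rescaling the libraries by median ratios, H2-Eb1 (-1.87), H2-Ab1 (-1.19), H2-Aa (-0.92), Cd74 (-0.86) and Tap2 (-0.55) kept the call. H2-K1 (-0.36), Tap1 (-0.25), H2-D1 (-0.20) and B2m (-0.10) did not, and B2m turned to 0.03 after quantile normalization. Divided by the ceiling, 4 members were called, the class II genes, with Cd74 at -0.80, Tap2 at -0.49, H2-K1 at -0.29, H2-D1 at -0.14 and B2m at -0.04. Rescaled or divided by the ceiling, fewer of all genes were called than on the RPKM scale, and most of those were higher. The share of all genes called lower on the RPKM scale therefore does not apply here, and the totals are given in the last section. The H2-K1 values of tet-Myc/YAP were 48.1% to 51.1% of the ceiling compared with 57.7% to 63.6% in WT, while H2-Eb1 was 2.6% to 5.6% compared with 11.3% to 19.5%. With the close pairs averaged, H2-Ab1, H2-D1 and B2m lost the call and 6 members kept it. Within the male-pattern libraries, where tet-Myc/YAP is the 2 close libraries alone, all 10 members were called lower, Ciita included (-0.71). Those tet-Myc/YAP libraries were the 2 deepest of R26. The share of all genes called lower in that fit is not given here, so the count says nothing particular about the members. The division by the ceiling and the fits within a sex pattern were chosen after seeing the data.

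**Figure D2:**
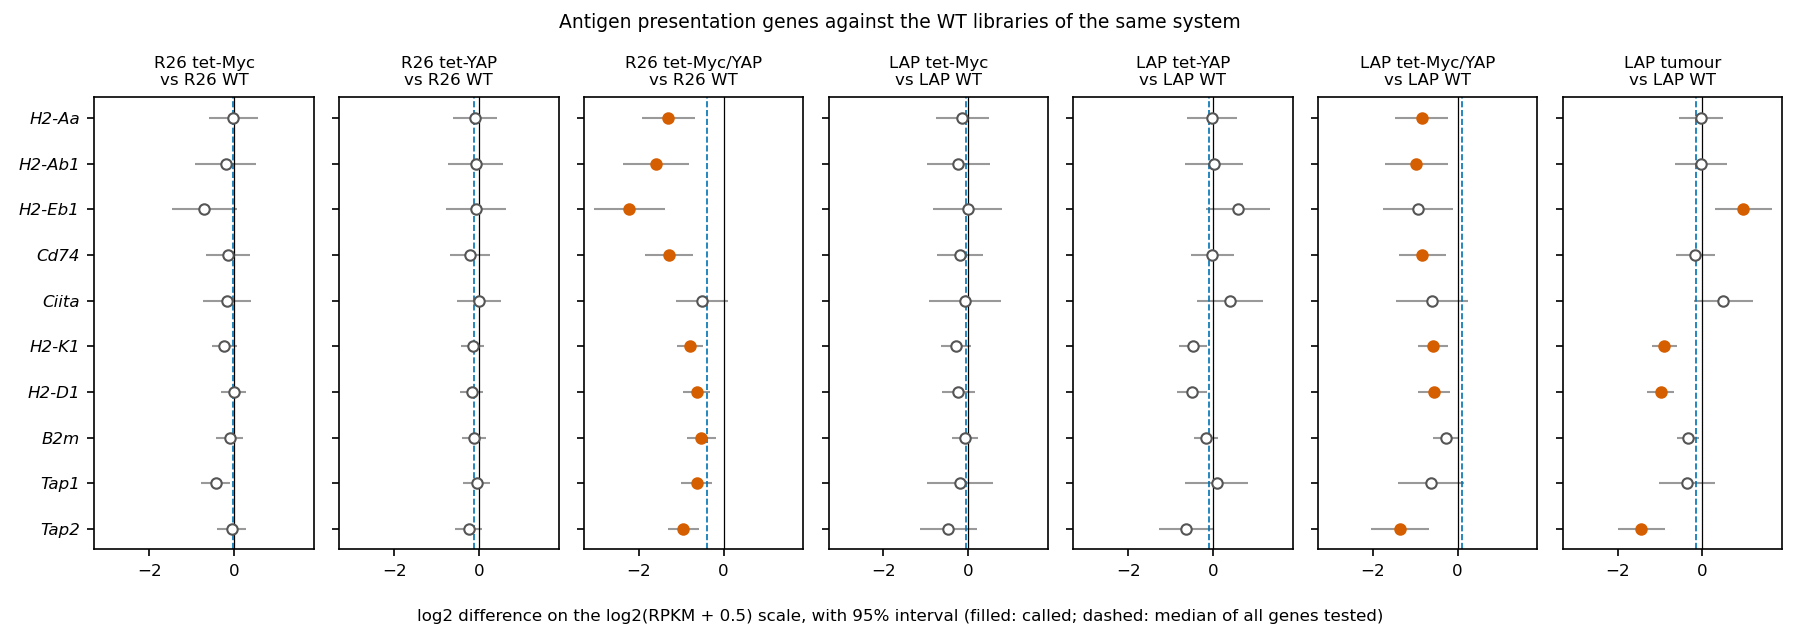
Log2 difference (x axis, log2(RPKM + 0.5) scale) of each antigen presentation gene against the WT libraries of its system, with the 95% interval; filled points were called, and the dashed line is the median of all genes tested. The R26 tet-Myc/YAP panel has 9 filled points, all to the left, the LAP tet-Myc/YAP panel 6, and the LAP tumour panel 4, of which H2-Eb1 alone is to the right.

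Other genes of the class II pathway moved the same way. Of the 8 of 12 listed genes that were tested, 6 fell and none rose, with a median of -1.15. These included the thiol reductase Ifi30 (-1.08), the protease Ctss, which trims Cd74 (-1.22), Rfxank, a subunit of the X box complex (-1.29), and the protease Lgmn (-0.79). H2-DMa (-1.30) and H2-DMb1 (-1.28), which load peptides on class II and are named here after their values were seen, fell as well. Of 12 class I pathway genes 8 fell, with a median of -0.60, among them the peptide editor Tapbp (-0.84) and the immunoproteasome subunits Psmb8 (-1.08) and Psmb10 (-0.85). Of 14 tested class I-like chains 10 fell (H2-T23, -1.27, and Hfe, -0.91, for example) and H2-Q1 rose (2.32). Of 19 tested interferon gamma pathway genes 11 fell, such as the GTPase Irgm1 (-1.002) and Irf9 (-0.76), with a median of -0.66. Nlrc5, the class I coactivator, went the other way. It was 2.62 to 3.63 RPKM in WT, 4.33 to 6.43 in tet-YAP and 4.16 to 4.5 in tet-Myc/YAP, rose in tet-YAP by 0.68 ± 0.12 (adjusted p = 0.00166) and was 0.42 ± 0.14 in tet-Myc/YAP, under the size threshold.

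Leukocyte markers moved with the members. In R26 tet-Myc/YAP all 6 pan-leukocyte markers fell, and their summed level was 8.28 to 14.0 RPKM compared with 24.3 to 31.5 in WT. Of 8 Kupffer cell markers 7 fell (sums of 41.4 to 44.1 and 89.0 to 110.0), of 8 tested monocyte and macrophage markers 7 fell (29.2 to 43.2 and 65.6 to 76.4), and of 10 sinusoidal endothelial markers 8 fell (49.8 to 55.7 and 91.9 to 104.0). Of 10 hepatocyte markers 6 fell (238.0 to 376.0 and 350.0 to 504.0). Apoa1 of that list lay at the ceiling, with a median of 34.3 RPKM in tet-Myc/YAP (median ceiling 34.3) and 57.8 in WT (56.8). The part of depth in the fall of the highest hepatocyte markers was not tested. The dendritic cell list summed to 2.67 to 4.15 and 4.90 to 6.51. None of the defining markers Clec4f, Vsig4, Clec9a, Xcr1, Ms4a1 and Ptprc was at 0 in any library. In these bulk samples fewer cells of a type and less RNA per cell cannot be told apart, and the part of these markers in the fall of the members was not tested. Relative to the pan-leukocyte sum, the sum of H2-Aa, H2-Ab1, H2-Eb1 and Cd74 was 1.42 to 2.51 in tet-Myc/YAP and 1.61 to 2.65 in WT.

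Neither transgene alone gave a call of a member in R26 in the fit without a covariate. In R26 tet-Myc against R26 WT 0 of 10 members were called (4.87% of all genes), with log2 differences from -0.70 ± 0.37 for H2-Eb1 (adjusted p = 0.224) to -0.01 ± 0.14 for H2-D1. Tap1 was the closest to a call (-0.43 ± 0.16, adjusted p = 0.0935), and H2-K1 (28.6 to 30.7 RPKM) lay below all 4 WT libraries (32.9 to 35.9) at a difference of -0.23 ± 0.14. Tap1 was also the 1 member at an unadjusted p under 0.05, and a fit with the sex pattern as covariate called H2-Eb1 lower (-1.204). Of the other genes, Tapbpl rose (0.64), Rfxank fell (-0.67) and the class I-like chain H2-T10 rose (1.28). In R26 tet-YAP against R26 WT 0 of 10 were called (6.19% of all genes), 0 had an unadjusted p under 0.05, and the differences ran from -0.24 ± 0.15 for Tap2 to 0.00 ± 0.24 for Ciita. The 95% interval for H2-Aa was -0.62 to 0.44 in tet-YAP, with each library counted as independent. All WT and tet-YAP libraries lay in close pairs, so this interval may be too narrow. It does not settle whether a change as large as that of tet-Myc/YAP was absent. The tet-YAP libraries varied widely among themselves. H2-Ab1 was 21.4, 13.8, 11.6, 24.7, 12.1 and 9.47 RPKM, and libraries 1 and 4, a close pair, were the highest for H2-Aa, H2-Ab1, H2-Eb1, Cd74, Ciita and Tap1.

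The libraries with both transgenes were also compared with each single transgene. Against tet-Myc, 7 members were called lower (36.3% of all genes): H2-Eb1 (-1.52 ± 0.40), H2-Ab1 (-1.40 ± 0.37), H2-Aa (-1.28 ± 0.30), Cd74 (-1.14 ± 0.26), Tap2 (-0.89 ± 0.17), H2-D1 and H2-K1. Against tet-YAP, 7 were called lower (23.2% of all genes), from H2-Eb1 (-2.15 ± 0.37) to Tap1 (-0.59 ± 0.16). With close pairs averaged, 2 of the latter 7 were called. These comparisons share the tet-Myc/YAP libraries. The test of the difference itself, the Myc by YAP interaction, called 5 members lower (21.1% of all genes). The interaction was -1.45 ± 0.52 for H2-Eb1 (adjusted p = 0.0381), -1.33 ± 0.48 for H2-Ab1 (adjusted p = 0.0402) and -1.19 ± 0.39 for H2-Aa (adjusted p = 0.0244). It was -0.92 ± 0.35 for Cd74 (adjusted p = 0.0455) and -0.65 ± 0.23 for Tap2 (adjusted p = 0.0355). None of the 5 passed after median-ratio rescaling, after quantile normalization, with close pairs averaged or without tet-Myc/YAP library 1 or 2. Divided by the ceiling, H2-Aa and Cd74 passed, and without tet-Myc/YAP library 3 the number was 8. The shares of all genes called under these settings are not given here, so these counts say nothing particular about the members.

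**Figure D3:**
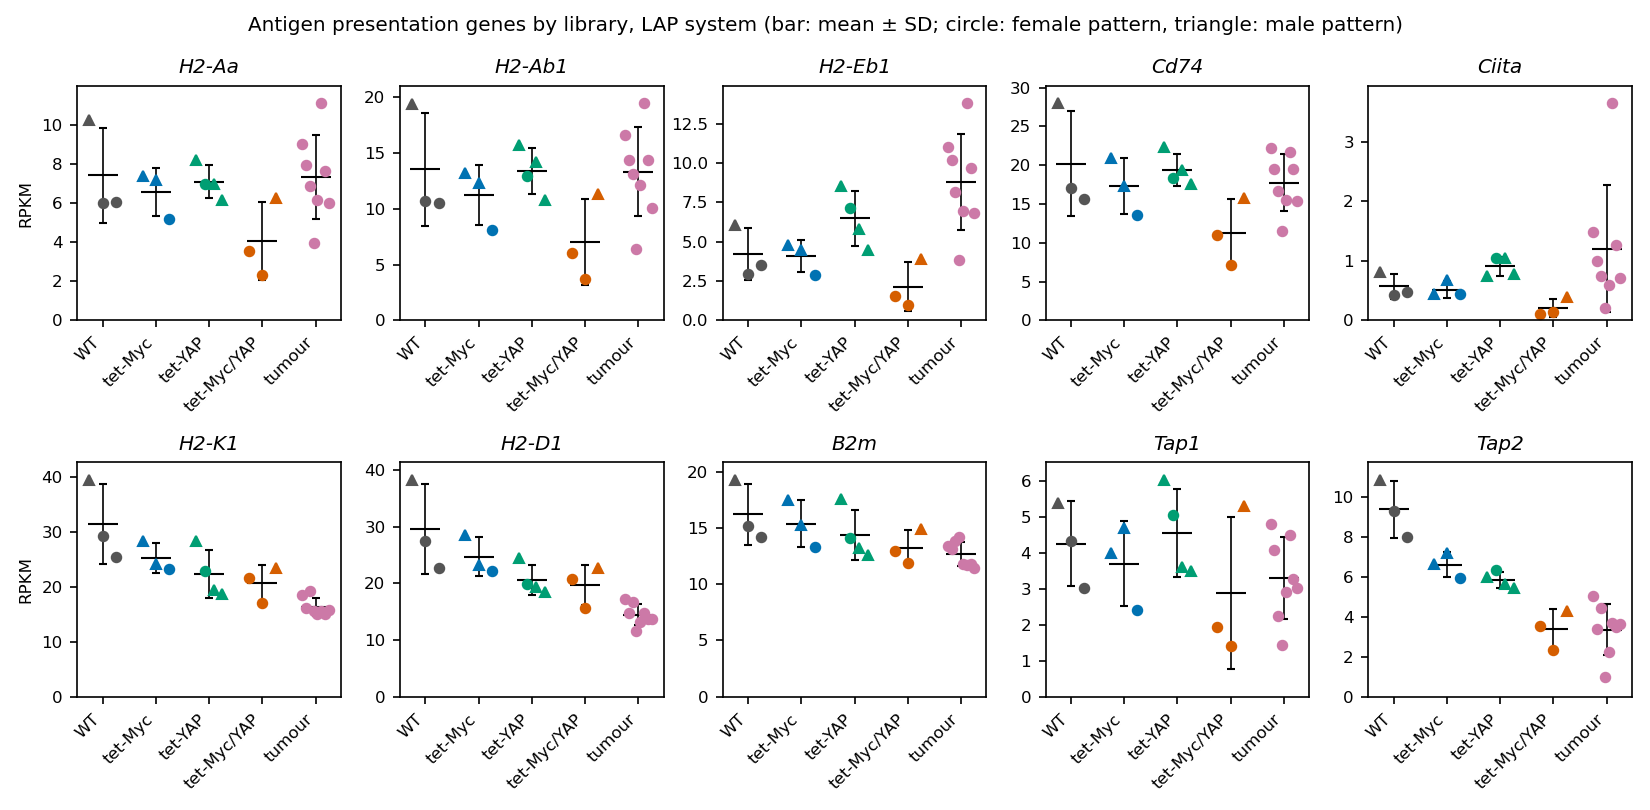
RPKM (y axis, linear from 0) of the 10 antigen presentation genes in each of the 21 LAP libraries by group, drawn as for R26. Tap2 is lower in all 8 tumours and all 3 tet-Myc/YAP libraries than in any WT library, while H2-Aa, H2-Ab1 and Cd74 of the tumours lie in and around the WT range.

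With the hepatocyte-directed transactivator, in LAP tet-Myc against LAP WT, 0 of 10 members were called and 0 had an unadjusted p under 0.05, where 0.0238% of all genes were called, so the count says nothing particular about the members. Tap2 was 5.96 to 7.23 RPKM, below all 3 WT libraries (7.99 to 10.9), at -0.47 ± 0.33 (adjusted p = 0.53) with a 95% interval of -1.15 to 0.21. In LAP tet-YAP against LAP WT 0 of 10 were called either (26.8% of all genes), and 2 had an unadjusted p under 0.05. These were H2-K1 (-0.48 ± 0.16, adjusted p = 0.0293) and H2-D1 (-0.49 ± 0.17, adjusted p = 0.0365), just under the size threshold. Divided by the ceiling these differences were 0.04 and 0.03, with Cd74 at 0.49 and B2m at 0.34, and after quantile normalization H2-K1 and H2-D1 were at 0.099 and 0.095, so their direction rests on the scaling. With close pairs averaged their adjusted p was 0.084 and 0.0772. Tap2 of tet-YAP (5.98, 6.37, 5.68 and 5.43 RPKM) again lay below WT, at -0.63 ± 0.30 (adjusted p = 0.12). With the sex pattern as a covariate H2-K1 (-0.57) and H2-D1 (-0.61) were called, as they were without WT library 3. Divided by the ceiling H2-Eb1 was called higher (1.05), and with only these 2 groups in the fit Tap2 was called lower.

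Class II genes of LAP tet-YAP gave no call while leukocyte markers rose. H2-Aa was 8.21, 6.95, 6.98 and 6.15 RPKM in tet-YAP compared with 10.2, 5.99 and 6.03 in WT, a difference of -0.03 with a 95% interval of -0.62 to 0.56. All 6 pan-leukocyte markers rose, with sums of 39.0 to 56.2 RPKM compared with 10.3 to 17.7. Of 11 monocyte and macrophage markers 8 rose, and of 8 Kupffer cell markers 3 rose (sums of 104.0 to 145.0 and 49.2 to 88.8). The class II sum relative to the pan-leukocyte sum was 0.973 to 1.11 in tet-YAP and 2.86 to 3.59 in WT, without overlap. Cd74, a part of that sum, was at 48.7% to 55.9% of the ceiling in tet-YAP and 33.0% to 41.5% in WT. The part of depth in this ratio was not tested. Of 8 class II pathway genes Ctss rose (0.94), and of 19 interferon gamma pathway genes Cxcl10 (1.90), Ifngr1 (0.70) and Jak2 (0.51) rose.

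**Figure D4:**
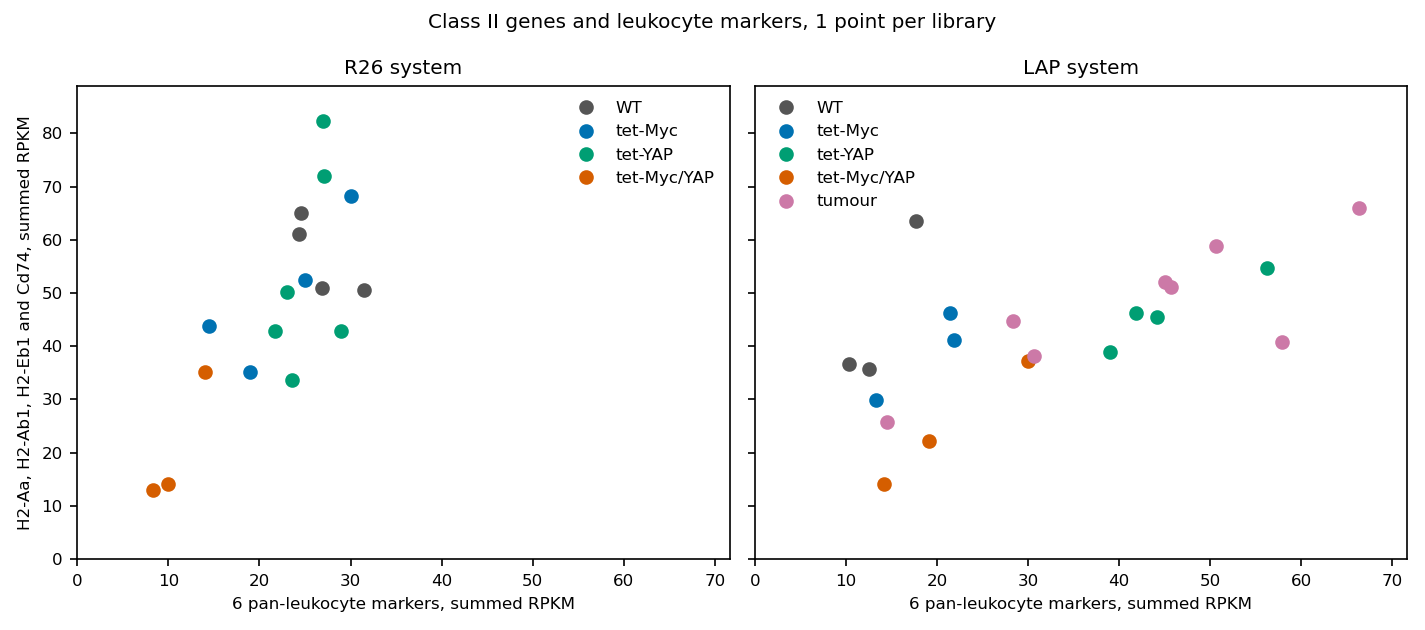
Summed RPKM of H2-Aa, H2-Ab1, H2-Eb1 and Cd74 (y axis) against the summed RPKM of 6 pan-leukocyte markers (x axis), 1 point per library, for R26 (left) and LAP (right). In R26 tet-Myc/YAP libraries 1 and 2 are the lowest on both axes, and in LAP the tet-YAP libraries lie at 39.0 to 56.2 on the x axis with class II sums of 39.0 to 54.7, compared with 35.7 to 63.6 in WT.

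In LAP tet-Myc/YAP 6 of 10 members were called lower against LAP WT (14.0% of all genes, with a median of all genes of 0.11). Tap2 fell most, from 10.9, 9.30 and 7.99 RPKM to 3.57, 2.34 and 4.29, by 1.37 ± 0.33 on the log2 scale (adjusted p = 0.0025). H2-Ab1 fell by 0.97 ± 0.35, H2-Aa by 0.85 ± 0.30 and Cd74 by 0.83 ± 0.26 (adjusted p = 0.0165), and H2-K1 (-0.57 ± 0.17) and H2-D1 (-0.55 ± 0.18) fell by less. H2-Aa was 3.55, 2.34 and 6.25 RPKM, and the third, male-pattern library overlapped WT (10.2, 5.99 and 6.03). H2-Eb1 was 1.55, 0.960 and 3.93 compared with 6.07, 2.96 and 3.54 (-0.93 ± 0.39, adjusted p = 0.0638). Ciita was 0.105, 0.139 and 0.385 compared with 0.817, 0.432 and 0.476, without overlap, at -0.60 ± 0.40 (adjusted p = 0.245). A library of 0.105 RPKM holds 3.7 reads per kilobase. Tap2 alone kept the call when only these 2 groups entered the fit, without LAP WT library 1, without tet-Myc/YAP library 2, or divided by the ceiling, and among the female-pattern libraries alone Cd74 was the 1 member called. Divided by the ceiling H2-K1 was -0.21, H2-D1 -0.19, Cd74 -0.47 and B2m 0.08, and after quantile normalization H2-K1 was -0.17 and H2-D1 -0.15, none of them called. With close pairs averaged all 6 were called, H2-Aa and H2-Ab1 at adjusted p = 0.0496 and 0.0494 in the limma fit.

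Markers of several cell types moved in LAP tet-Myc/YAP too. Of 7 tested cholangiocyte and progenitor markers 5 rose (sums of 42.2 to 83.6 RPKM compared with 9.53 to 13.4), with Epcam at 3.01 to 7.67 compared with 0.219 to 0.396. Of 10 hepatocyte markers 5 fell (211.0 to 268.0 and 336.0 to 491.0), and Alb (31.2 to 38.8 and 40.7 to 52.1) and Ttr (20.5 to 26.2 and 28.0 to 39.9) did not overlap WT. Alb lay near the ceiling, at a median of 35.9 RPKM (median ceiling 41.9) compared with 48.0 in WT (51.6). The part of depth in the fall of the highest hepatocyte markers was not tested. Of 11 monocyte and macrophage markers 2 rose (median sums of 67.1 and 42.1, with overlap). Of 6 pan-leukocyte markers 0 were called (sums of 14.2 to 30.0 RPKM compared with 10.3 to 17.7), and of 8 Kupffer cell markers 0 (40.7 to 94.7 and 49.2 to 88.8). Library 3, the highest for the class II genes, was also the highest on both lists. Of 10 sinusoidal endothelial markers 5 fell (45.7 to 63.7 and 84.8 to 107.0). The part of these cell types in the members' values was not tested. The class II sum was 1.0 to 1.24 times the pan-leukocyte sum. Of 8 class II pathway genes none fell, and Rfx5 (0.62) and Ctss (0.62) rose. Of 12 class I pathway genes 5 fell, such as Psmb9 (-1.55), Tapbpl (-0.63), Erap1 (-0.68) and Tapbp (-0.58). Of 19 interferon gamma pathway genes 7 fell, among them the GTPases Igtp (-1.65) and Gbp7 (-1.64), and Ifngr1 (1.30) and Jak2 (0.73) rose.

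Against LAP tet-Myc only Tap2 was called lower (8.74% of all genes), at -0.90 ± 0.33 (adjusted p = 0.0427), a call that ended on leaving out any of the 6 libraries but tet-Myc/YAP library 3 and with close pairs averaged. Against LAP tet-YAP, 5 members were called lower (8.44% of all genes): H2-Eb1 (-1.52 ± 0.37, adjusted p = 0.00457), H2-Ab1 (-1.002 ± 0.33), Ciita (-1.003 ± 0.38), H2-Aa (-0.82 ± 0.28) and Cd74 (-0.81 ± 0.25). In that comparison 5 of 6 pan-leukocyte and 5 of 8 Kupffer cell markers fell too. With the sex pattern as a covariate, or with close pairs averaged, H2-Eb1 and Cd74 kept the call, and without tet-Myc/YAP library 1 or 2 H2-Eb1 alone did. The Myc by YAP interaction in LAP called 0 members (15.7% of all genes), with 1 at an unadjusted p under 0.05 (H2-Eb1, -1.51 ± 0.54, adjusted p = 0.0585).

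In tumours H2-Eb1 rose and H2-K1, H2-D1 and Tap2 fell against LAP WT, where 21.5% of all genes were called higher and 31.3% lower. H2-Aa was 9.03, 7.92, 6.85, 3.93, 6.15, 11.1, 7.62 and 5.98 RPKM in tumours 1 to 8, a difference from WT of -0.03 with a 95% interval of -0.55 to 0.50. Tumour 4 was the lowest and tumour 6 the highest for H2-Aa, H2-Ab1, H2-Eb1 and Ciita. H2-Eb1 was 11.04, 10.2, 8.14, 3.82, 6.98, 13.8, 9.71 and 6.84 RPKM, rose by 0.97 ± 0.33 (adjusted p = 0.014) and lost the call without WT library 2 (0.78) or 3 (0.89) and with close pairs averaged (0.83). Tap2 was 5.03, 3.40, 4.45, 0.976, 2.24, 3.69, 3.48 and 3.64, all below WT, and fell by 1.44 ± 0.27 (adjusted p = 0.000133).

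H2-K1 was 15.0 to 19.2 RPKM (median 15.7) in the tumours compared with 39.5, 29.3 and 25.4 in WT, and fell by 0.90 ± 0.14 (adjusted p = 2.19e-05). H2-D1 was 11.5 to 17.2 (median 14.3) compared with 38.2, 27.5 and 22.8, and fell by 0.98 ± 0.15 (adjusted p = 1.74e-05). Both held after median-ratio rescaling (-0.72 and -0.80) but not on 2 other scales. The tumour libraries were the deepest, with ceilings of 28.7 to 38.6 RPKM compared with 43.0 to 67.3 in WT, and divided by the ceiling H2-K1 differed by -0.15 and H2-D1 by -0.23, with no call. After quantile normalization they differed by -0.06 and -0.15. H2-K1 was 40.3% to 58.9% of the ceiling in tumours and 56.7% to 59.0% in WT. On the ceiling scale H2-Eb1 (1.66), H2-Ab1 (0.71), H2-Aa (0.69), Cd74 (0.58) and Ciita (0.94) were called higher, and Tap2 (-0.73) lower. On that scale 6141 of the 12591 genes tested were called higher and the median of all genes was 0.50, so the 5 of 10 members are near the background. Tap2 was called lower under every alternative tried, with -1.57 to -0.73. B2m was -0.34 ± 0.12 on the RPKM scale and 0.40 on the ceiling scale, called on neither.

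In tumours 9 of 12 class I pathway genes fell, led by the trimming peptidase Erap1 (-1.28), Calr (-0.85), the proteasome activator Psme2 (-0.87) and Psmb10 (-1.11). Of 15 class I-like chains 6 fell, among them H2-T10 (-2.12), Fcgrt (-1.45) and Cd1d1 (-2.29), and 4 rose, with H2-Q2 at 2.71. All 6 pan-leukocyte markers rose (sums of 14.5 to 66.3 RPKM, lowest in tumour 4 and highest in tumour 6) while 5 of 8 Kupffer cell markers fell (9.05 to 39.0). Clec4f was 0.509 to 8.55 RPKM in tumours and 17.3 to 25.8 in WT. All 10 hepatocyte markers fell (113.0 to 220.0 and 336.0 to 491.0), and 7 cholangiocyte and progenitor markers rose (47.7 to 108.0 and 9.53 to 13.4). Alb lay near the ceiling, at a median of 27.2 RPKM in tumours (median ceiling 30.3) and 48.0 in WT (51.6). The part of depth in the fall of the highest hepatocyte markers was not tested. The part of these cell types in the members' values was not tested. The class II sum was 0.705 to 1.77 times the pan-leukocyte sum, below the 2.86 to 3.59 of WT. Cd74 was at 29.9% to 75.6% of the ceiling in tumours, and the part of depth in this ratio was not tested. Against LAP tet-YAP livers Tap2 alone was called lower (15.5% of all genes), at -0.81 ± 0.24 (adjusted p = 0.0145), and lost the call with the sex pattern as a covariate (-0.66). With close pairs averaged H2-D1 (-0.53) was called lower as well. Against LAP tet-Myc/YAP 5 members were called higher (6.57% of all genes): H2-Eb1 (1.90 ± 0.33), Ciita (1.10 ± 0.33), H2-Ab1 (0.95 ± 0.29), H2-Aa (0.82 ± 0.25) and Cd74 (0.67 ± 0.22). Without tet-Myc/YAP library 1 or 2, H2-Aa, H2-Ab1 and Cd74 lost that call and H2-Eb1 kept it, and Ciita lost it without library 1.

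Within groups the 4 class II genes varied together. On the log2(RPKM + 0.5) scale, with group means removed, Pearson's r among H2-Aa, H2-Ab1, H2-Eb1 and Cd74 was 0.934 to 0.983 over the 17 R26 libraries and 0.933 to 0.989 over the 21 LAP libraries, and H2-K1, H2-D1 and B2m had 0.943 to 0.988 and 0.731 to 0.917. Between class II genes and these class I genes r was 0.65 to 0.885 in R26 and 0.418 to 0.864 in LAP. These are descriptions over libraries that share depth and ceiling. By the rule of highest r with the class II mean, the genes most alike in R26 were Ankrd44 (0.947), Samhd1 (0.934), H2-Q7 (0.924), Rnd2 (0.920), H2-Q6 (0.917) and Gbp4 (0.910). In LAP they were Psmb9 (0.935), Igtp (0.927), Ppm1f (0.921), H2-DMb1 (0.915), Trim21 (0.915) and Fam26f (0.909). For the mean of H2-K1, H2-D1, B2m, Tap1 and Tap2 they were Nrp1 (0.960), Sult5a1 (0.947), Depdc7 (0.945), Cyp26a1 (0.935), Ces3b (0.929) and Gbp11 (0.921) in R26. In LAP they were Trafd1 (0.919), Irgm1 (0.917), Ifi47 (0.909), Trim14 (0.898), Igtp (0.897) and Parp9 (0.887). Igtp, an interferon-inducible GTPase, was on both LAP lists.

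The ratio of H2-Eb1 to H2-Aa varied between groups. Scaling by a factor leaves such a ratio within a library as it is, but the ceiling may hold down the higher gene more. In tumours H2-Eb1 reached 48.1% and Cd74 75.6% of the ceiling, and the part of depth in these ratios was not tested. The ratio of H2-Eb1 to H2-Aa was chosen after the values were seen and is given as a description. In R26 WT the ratio was 0.925 to 1.21, with 0.983 to 1.34 in R26 tet-YAP, 0.538 to 0.863 in R26 tet-Myc and 0.421 to 0.568 in R26 tet-Myc/YAP, so that the libraries with tet-Myc did not overlap those without. In LAP it was 0.495 to 0.594 in WT, 0.565 to 0.651 in tet-Myc and 0.410 to 0.628 in tet-Myc/YAP, compared with 0.722 to 1.04 in tet-YAP and 0.973 to 1.29 in tumours. The ratios of LAP WT lay below all those of R26 WT. The ratios of the other class II genes to H2-Aa varied as well. That of Cd74 was 3.02 to 3.19 in R26 tet-Myc/YAP, above R26 tet-Myc (2.29 to 2.91) and R26 tet-YAP (2.24 to 2.999) and overlapping R26 WT (2.72 to 3.03), and in LAP it ran from 1.96 to 2.94 in tumours and from 2.52 to 3.11 in tet-Myc/YAP, around 2.59 to 2.84 in WT. That of H2-Ab1 was 1.43 to 2.12 over all 38 libraries, where R26 WT held 1.70 to 2.04 and R26 tet-Myc/YAP 1.47 to 1.78. The ratio of H2-D1 to H2-K1 likewise was 0.988 to 1.03 in R26 tet-Myc and 0.946 to 0.976 in R26 tet-Myc/YAP, above the R26 WT (0.847 to 0.900) and R26 tet-YAP (0.818 to 0.875) libraries. H2-Eb1, H2-K1 and H2-D1 are polymorphic between mouse strains, the labels give no haplotype, and genotype group and genetic background cannot be told apart.

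**Figure D5:**
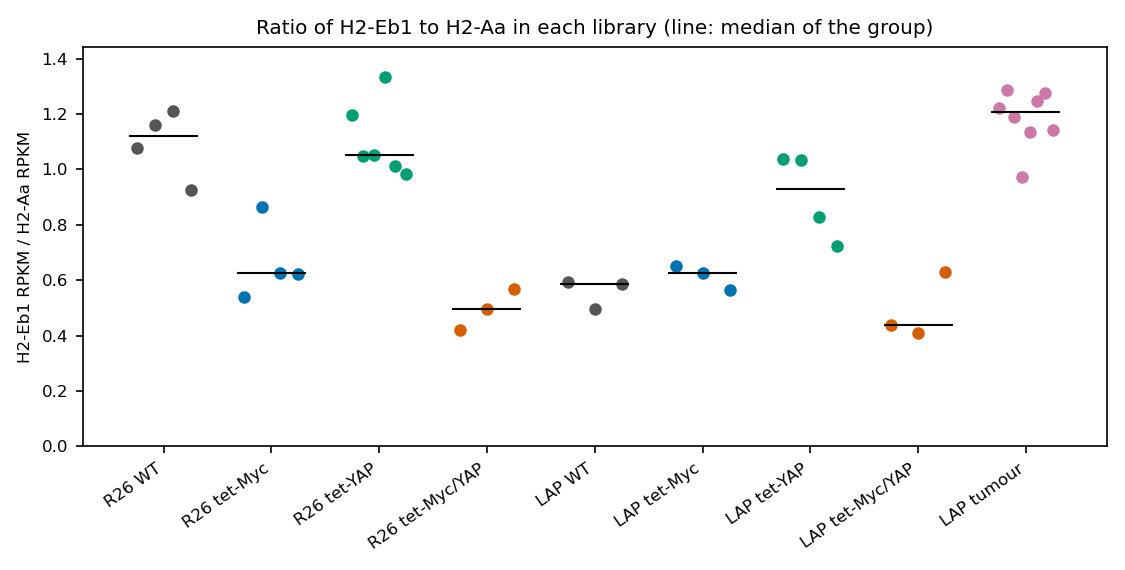
H2-Eb1 RPKM divided by H2-Aa RPKM in each of the 38 libraries (y axis, linear from 0) by group, with the median of the group as a line. R26 WT, R26 tet-YAP and the tumours lie near or above 0.925, LAP tet-YAP at 0.722 to 1.04, and the other 5 groups at 0.41 to 0.863.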

How the data were processed

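Total RNA of mouse liver was sequenced after TruSeq RNA v2 preparation without poly-T selection. The submitters' processing notes name TopHat2 2.0.8, TopHat, SAMtools, featureCounts 1.4.5-p1, DESeq2 and the build mm9. The RPKM values are used as deposited, one column per library, and the authors made them from gene read counts scaled by gene length and library size. A table of the authors' own comparisons (fold changes and adjusted p-values) was not used. Of 21671 genes per table, 27 whose symbols had turned into dates were left out. Read depth was recovered from the steps between low RPKM values, so reads per kilobase are estimates, and the number of libraries limits precision further.

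Differences were tested with limma 3.58.1 in R 4.3.3 (trend on mean level) on log2(RPKM + 0.5), which understates the change of low genes, for genes with at least 1 RPKM in 3 libraries (11263 in R26, 12591 in LAP). All libraries of a system entered 1 fit, and p-values were Benjamini-Hochberg adjusted over all genes tested. The procedure was tested on simulated data. The comparisons with WT share the WT libraries. Columns name the group but not the sample, so libraries were numbered in column order. All 10 members are named, of each other list at most 4 genes, those of lowest adjusted p, and 6 genes by likeness. The members and lists were chosen with earlier results of these data known. Alternatives were the pseudocount, the filter, median-ratio and quantile scaling, the sex pattern as a covariate, only the groups compared, close pairs averaged and each library left out, and, chosen after seeing the data, division by the ceiling, libraries of 1 sex pattern and close LAP pairs averaged. Figures were drawn with matplotlib 3.10.9 in Python 3.11.15. One marker gene and the list that holds it are not reported here.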

Additional observations from a re-analysis of the deposited data

Results flagged for a closer look

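Ciita in LAP tumour library 6 was 3.647 RPKM, far from the other 7 tumours (0.204 to 1.48). Of 50 sets of 4 to 8 libraries checked this way, 1 held such a library. Chance gives about 1 in 20, so 1 of 50 is not above that rate. In R26 the Myc by YAP interaction in the limma fit called 5 members lower, where 21.1% of all genes were called lower. It was -1.1944 for H2-Aa, -1.3279 for H2-Ab1, -1.4472 for H2-Eb1, -0.9234 for Cd74 and -0.646 for Tap2, on the log2 scale. None of the 5 passed after median-ratio rescaling, after quantile normalization, with close pairs averaged or without tet-Myc/YAP library 1 or 2.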

How the results depend on the processing

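No paired analysis was possible because the LAP columns carry no replicate numbers and the R26 columns only running suffixes that no source ties to the labels' numbers. Over 50 calls of a member in a comparison, 943 alternative values were computed, of which 741 kept the call, 201 lost it and 1 changed sign (B2m in R26 tet-Myc/YAP against WT, 0.034 after quantile normalization). Members called in R26 tet-Myc/YAP against WT were 9, and 5 after median-ratio rescaling, 5 after quantile normalization, 4 after division by the ceiling and 7 to 9 on leaving out a library.

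Against R26 tet-YAP they were 7, and 4 rescaled, 4 by the ceiling, 2 with close pairs averaged and 6 to 10 with a library left out, and against R26 tet-Myc 7, with 5 to 8. The R26 interaction had 5, and 1 without the filter, 0 rescaled, 0 by quantiles, 2 by the ceiling, 8 in male-pattern libraries, 0 with close pairs averaged and 0 to 8 with a library left out (0 without tet-Myc/YAP library 1 or 2, and 1 without WT 4, tet-Myc 2 or 3, or tet-YAP 1 or 4). R26 tet-Myc against WT had 0, and 1 with the sex covariate.

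LAP tet-YAP against WT had 0, and 1 by the ceiling, 2 with the sex covariate, 1 with only these groups and 0 to 2 with a library left out. LAP tet-Myc/YAP against WT had 6, and 3 by quantiles, 1 by the ceiling, 1 in female-pattern libraries, 1 with only these groups and 1 to 8 with a library left out. Against LAP tet-Myc it had 1, and 0 with pseudocount 0.1, 0 without the filter, 6 rescaled, 3 by quantiles, 0 by the ceiling, 0 with the sex covariate, 0 in female-pattern libraries, 0 with close pairs averaged and 0 to 5 with a library left out. Against LAP tet-YAP it had 5, and 2 with the sex covariate, 1 in female-pattern libraries, 2 with close pairs averaged and 1 to 6 with a library left out. The LAP interaction had 0, and 1 rescaled, 2 by quantiles, 1 by the ceiling, 2 with only these groups and 0 to 1 with a library left out. Tumours against WT had 4, with 3 to 4 on leaving out a library. Against LAP tet-YAP they had 1, and 2 with pseudocount 0.1, 0 by the ceiling, 0 with the sex covariate, 0 in female-pattern libraries, 2 with close pairs averaged and 1 to 2 with a library left out, and against LAP tet-Myc/YAP 5, with 1 to 5. For most of these settings the share of all genes called is not given here, so a count of members alone says nothing particular about them. The cause of these changes was not tested.

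Over all genes, R26 tet-Myc/YAP against WT had 4751 calls, 519 of them higher, compared with 2330 (1363 higher) rescaled, 2315 (1079) by quantiles and 2043 (1397) by the ceiling. Tumours against WT had 6651 (2708 higher), and 7343 (6141) by the ceiling. LAP tet-YAP against WT had 3373 (1442 higher), and 1841 (1093) by quantiles and 96 (66) in female-pattern libraries. R26 tet-Myc and tet-YAP against WT had 548 and 697, and 56 and 27 with close pairs averaged. With LAP close pairs averaged, LAP tet-YAP against WT had 1535 (687 higher) and the LAP interaction 81, compared with 1975. Depth limits Ciita, with 3.7 reads per kilobase in its lowest library.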
